A study of Homo sapiens with 40 samples.

Results

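The genes described here encode the aminoacyl-tRNA synthetases and the tRNA methyltransferases of the TRMT series. They were taken by a rule on the current gene symbol, which was set with earlier results of these data known. A gene was included if its symbol is that of a synthetase (names ending in ARS1 or ARS2, with EPRS1, FARSA and FARSB) or begins with TRMT. By this rule 50 of the 20046 genes named on the array were members, namely 18 cytosolic synthetases, 16 mitochondrial synthetases and 16 TRMT genes. GARS1 and KARS1, whose products serve both compartments, were counted as cytosolic. Of the members, 49 were among the 13740 genes tested, because TRMT9B was detected on 1 of 40 arrays and was left out.

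Aminoacyl-tRNA synthetases join each amino acid to its tRNA, and most amino acids have separate nuclear genes for the cytosolic and the mitochondrial enzyme. Several cytosolic synthetases are held together in a multisynthetase complex, and many are targets of the transcription factor ATF4 during amino acid shortage and of MYC in growing cells. The TRMT enzymes add methyl groups to tRNA bases or riboses, which bears on tRNA folding, stability and decoding, and some of them work only with a partner subunit.

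The 40 Illumina bead arrays, read in 1 colour, came from GRANTA519, JEKO1, MAVER1 and REC1, established human lines of mantle cell lymphoma. This is a cancer of B cells. Each line received OTX015, an inhibitor of the BET bromodomain proteins that read acetylated histones, or DMSO as the vehicle, for 2, 4, 8, 12 or 24 h. Each of the 10 combinations of treatment and time thus had 4 arrays, 1 per line. The sources used here give no dose of OTX015, and each line stands for a single tumour. Whether a line's times are separate cultures is not stated. P-values within a line or between lines thus measure the spread over the 5 times of a line and not over cultures.

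The background of an array lay between 89.2 and 113.2 intensity units, and 35.3% to 46.8% of the probes were detected, lowest in JEKO1 with OTX015 at 12 h. All 40 arrays were closest to another array of their own line. The B cell genes CD79A and CD79B and the mantle cell lymphoma gene SOX11 were detected on 40 arrays and CCND1 on 25, whereas the probe for PAX5 was detected on 0 arrays. Of the 9 B cell and lymphoma markers listed, 7 were tested, and OTX015 raised SOX11 and lowered MS4A1, CD79A, CD79B and CD22. Of 10 T and NK cell markers 3 were tested and of 10 myeloid markers 5, and none of these passed. Summed myeloid signals ranged from 472 to 998 on DMSO arrays and from 468 to 879 on OTX015 arrays, and summed T and NK signals from 64.2 to 1279 and from 65.4 to 1181. Their part in the results was not tested.

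Changes are given as OTX015 minus DMSO of the same line and time on the log2 scale, where -1 is a halving of the signal. A change over all times is the mean ± SD of 4 lines, each line being averaged over its 5 times. A gene passed the test at an adjusted p of limma under 0.05 over all genes tested. Because whole cultures were assayed, fewer cells that express a gene and less RNA per cell cannot be told apart. The size of a change depended on the background correction. Among the 18 members that passed over all times, the median change shrank to 72.4% of its size when no background was removed, and to 67.3% in the authors' normalized values.

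Over all times, OTX015 lowered many more of these genes than it raised. Of the 49 members, 18 passed the test (36.7%, against 28.9% of all genes tested). The fall predominated, with 16 members lower (32.7%, against 14.4% of all genes) and 2 higher (4.08%, against 14.5%). The median change of the members was -0.10, and that of all genes was 0.0058. The groups are given in turn. Among the TRMT genes, 1 rose and 6 fell of 15 tested, with a median of -0.19. Among the mitochondrial synthetases, 0 rose and 5 fell of 16, with a median of -0.08. Among the cytosolic synthetases, 1 rose and 5 fell of 18, with a median of -0.05, and without GARS1 and KARS1 6 of 16 passed with the same median. The order of the medians depended on the processing. In the authors' normalized values they were -0.070 for the TRMT genes, -0.036 for the mitochondrial and -0.045 for the cytosolic synthetases, and without background correction -0.067, -0.042 and -0.046. No difference between the groups was tested, because members are not replicates.

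**Figure D1:**
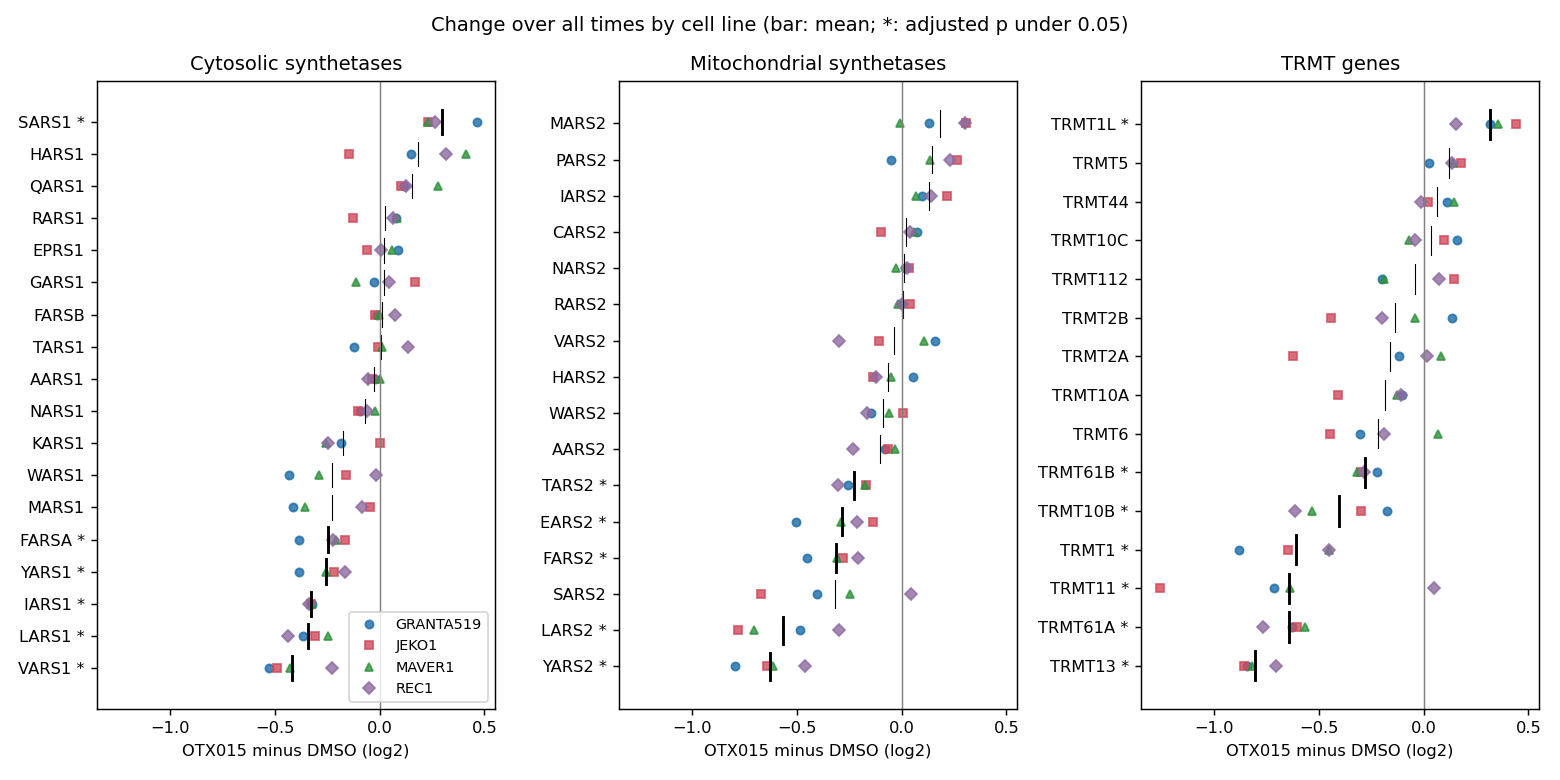
Change over all times (OTX015 minus DMSO, log2, x axis) of the 49 tested members in 3 panels, ordered by mean. Each symbol is 1 cell line averaged over 5 times, the black bar is the mean of 4 lines and an asterisk marks an adjusted p under 0.05. TRMT13, TRMT61A, TRMT11, YARS2, TRMT1 and LARS2 lie farthest to the left, and TRMT11 in REC1 lies at 0.05.

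Promoter sequences of 43 of the 49 tested members were found in RefSeq (GRCh38.p14), as windows of 250 bases before and 50 after the start of the gene. AARS2, LARS1, TRMT2A, VARS1, VARS2 and YARS1 had no entry. They were searched on both strands for TGATGNAA, the core of the C/EBP-ATF response element through which ATF4 acts, and for CACGTG, the E-box bound by MYC and its relatives. The response element core was in 6 of 19 windows of cytosolic synthetases (31.6%), 1 of 18 mitochondrial windows (5.56%) and 0 of 17 TRMT windows, against 3.62% of 35116 windows in all. The E-box was in 1 of 19 cytosolic windows, 4 of 18 mitochondrial windows, and 2 of 17 TRMT windows, against 7.26% in all. Overlapping windows of EARS2 hold the same site. By gene, the E-box was in 1 of 15 cytosolic, 3 of 14 mitochondrial and 2 of 14 TRMT genes. A match describes the sequence and does not show that a factor binds there. The cytosolic matches are shown because that group held most of the members' matches. Each is a 30-base stretch on the gene's strand with the motif, or its reverse complement, in capitals.
AARS1 (chr16:70289675-70289704, minus): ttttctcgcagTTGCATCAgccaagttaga
GARS1 (chr7:30594834-30594863, plus): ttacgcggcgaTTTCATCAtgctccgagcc
IARS1 (chr9:92293692-92293721, minus): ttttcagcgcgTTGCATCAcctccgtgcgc
MARS1 (chr12:57488053-57488082, plus): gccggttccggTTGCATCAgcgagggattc
NARS1 (chr18:57621804-57621833, minus): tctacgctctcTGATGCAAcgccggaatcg
TARS1 (chr5:33440956-33440985, plus): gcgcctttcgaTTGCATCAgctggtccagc

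Of these 6 genes, IARS1 passed over all times, with a change of -0.33. The other 5 did not, with changes of -0.23 for MARS1, -0.07 for NARS1, -0.03 for AARS1, 0.00 for TARS1 and 0.02 for GARS1. The 1 mitochondrial match was in YARS2, which had the largest fall of the mitochondrial group. The E-box was in IARS1, in the mitochondrial synthetase genes CARS2 (0.02), EARS2 (-0.29, passed) and MARS2 (0.18), and in TRMT6 and TRMT61A (-0.22 and -0.64, the second passed). Stretches are shown for YARS2, for EARS2 and MARS2, whose changes had opposite signs, and for TRMT6 and TRMT61A, subunits of 1 enzyme.
YARS2, response element core (chr12:32756076-32756105, minus): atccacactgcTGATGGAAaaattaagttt
EARS2, E-box (chr16:23557348-23557377, minus): cagggagaagccCACGTGtgctattccatc
MARS2, E-box (chr2:197705346-197705375, plus): atgcgcctctcaCACGTGctgtcagaacgc
TRMT61A, E-box (chr14:103529216-103529245, plus): gcgtcgcggaggCACGTGtggagccccggc
TRMT6, E-box (chr20:5950512-5950541, minus): agcggcgtgcaaCACGTGggggcggtgccg

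IARS1 was the only member with both motifs in its window. Its upstream 250 bases (chr9:92293698-92293947, minus strand) are given whole, with the E-box first and the reverse complement of the response element core near the gene's start in capitals.
IARS1: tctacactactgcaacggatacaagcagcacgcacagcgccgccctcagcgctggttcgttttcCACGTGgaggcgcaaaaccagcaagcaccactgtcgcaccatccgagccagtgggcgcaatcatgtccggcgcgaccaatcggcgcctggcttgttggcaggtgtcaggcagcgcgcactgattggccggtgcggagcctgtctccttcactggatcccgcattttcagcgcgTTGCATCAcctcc

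TRMT13, which methylates a ribose in the acceptor stem of some tRNAs, had the largest fall of all members. Its log2 signal ranged from 6.96 to 8.14 on the 20 DMSO arrays (median 7.57) and from 5.92 to 7.54 on the 20 OTX015 arrays (median 6.80). Within each of the 4 lines every OTX015 array lay below every DMSO array. No other member was separated in this way in all lines, and 0.815% of all genes tested were, with a further 0.859% separated in the other direction. By pair, the changes in JEKO1 were -1.54, -1.11, -0.50, -0.55 and -0.58 at 2, 4, 8, 12 and 24 h. In REC1 they were -0.76, -1.20, -0.87, -0.48 and -0.21. The mean fall was 1.75-fold (log2 -0.81 ± 0.07, adjusted p = 0.000692), with line means of -0.85 in GRANTA519, -0.86 in JEKO1, -0.82 in MAVER1 and -0.70 in REC1.

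TRMT61A is the catalytic subunit of the enzyme that methylates an adenosine in the T loop of cytosolic tRNA. Its signal lay between 7.09 and 8.28 on DMSO arrays (median 7.69) and between 6.64 and 7.63 on OTX015 arrays (median 7.06). It was lower in 19 of 20 pairs, the exception being JEKO1 at 12 h with 0.02, and the arrays of both arms did not overlap in GRANTA519. The mean fall was 1.56-fold (log2 -0.64 ± 0.09, adjusted p = 0.00128). TRMT6, the partner that binds tRNA in the same enzyme, changed by -0.22 ± 0.22 and did not pass (adjusted p = 0.127). The TRMT6 probe was detected on 19 of the DMSO arrays and 14 of the OTX015 arrays, and a change in it cannot be sized below background.

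TRMT1, which dimethylates a guanosine of tRNA, was lower in 20 of 20 pairs. Its signal lay between 7.83 and 9.43 on DMSO arrays (median 8.24) and between 6.82 and 8.39 on OTX015 arrays (median 7.80). The arms did not overlap in GRANTA519, JEKO1 and REC1. The mean fall was 1.52-fold (log2 -0.61 ± 0.20, adjusted p = 0.00377), largest in GRANTA519 with -0.88 and -0.45 in both MAVER1 and REC1. TRMT1L, its closest relative, moved the other way. Its signal lay between 5.32 and 7.52 on DMSO arrays (median 6.91) and between 5.54 and 7.96 on OTX015 arrays (median 7.20), with overlap in every line. It was higher in 18 of 20 pairs, with a mean rise of 1.25-fold (log2 0.32 ± 0.12, adjusted p = 0.0159). A dim second probe for TRMT1L, detected on 4 of 40 arrays, gave 0.07.

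TRMT11 methylates a guanosine of tRNA together with TRMT112, a small activator shared by several methyltransferases. The TRMT11 probe was detected on every array of GRANTA519, JEKO1 and MAVER1 and on 0 arrays of REC1. Its signals lay between 6.70 and 7.86 on the DMSO arrays of the first 3 lines and between 4.24 and 4.47 in REC1. The change was -0.71 in GRANTA519, -1.26 in JEKO1 and -0.64 in MAVER1, with no overlap of the arms in any of the 3. In REC1 it was 0.05, where the signal was at background. Over all 4 lines the mean was 1.56-fold lower (log2 -0.64 ± 0.54, adjusted p = 0.0431). TRMT112 did not pass (-0.04 ± 0.18, adjusted p = 0.745).

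Of the remaining TRMT genes, TRMT61B, the mitochondrial counterpart of TRMT61A, fell 1.22-fold (log2 -0.28 ± 0.04, adjusted p = 0.0132). TRMT10B, a purine methyltransferase, fell 1.33-fold (log2 -0.41 ± 0.20, adjusted p = 0.0155), and a second probe gave -0.22. The other 8 tested TRMT genes did not pass, with changes from -0.22 for TRMT6 to 0.12 for TRMT5. They include TRMT10A (-0.19), TRMT10C (0.04), a subunit of mitochondrial RNase P, the uridine methyltransferases TRMT2A (-0.16) and TRMT2B (-0.14), and TRMT44 (0.07). TRMT10A was detected on 18 DMSO and 16 OTX015 arrays and TRMT44 on 16 and 17.

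**Figure D2:**
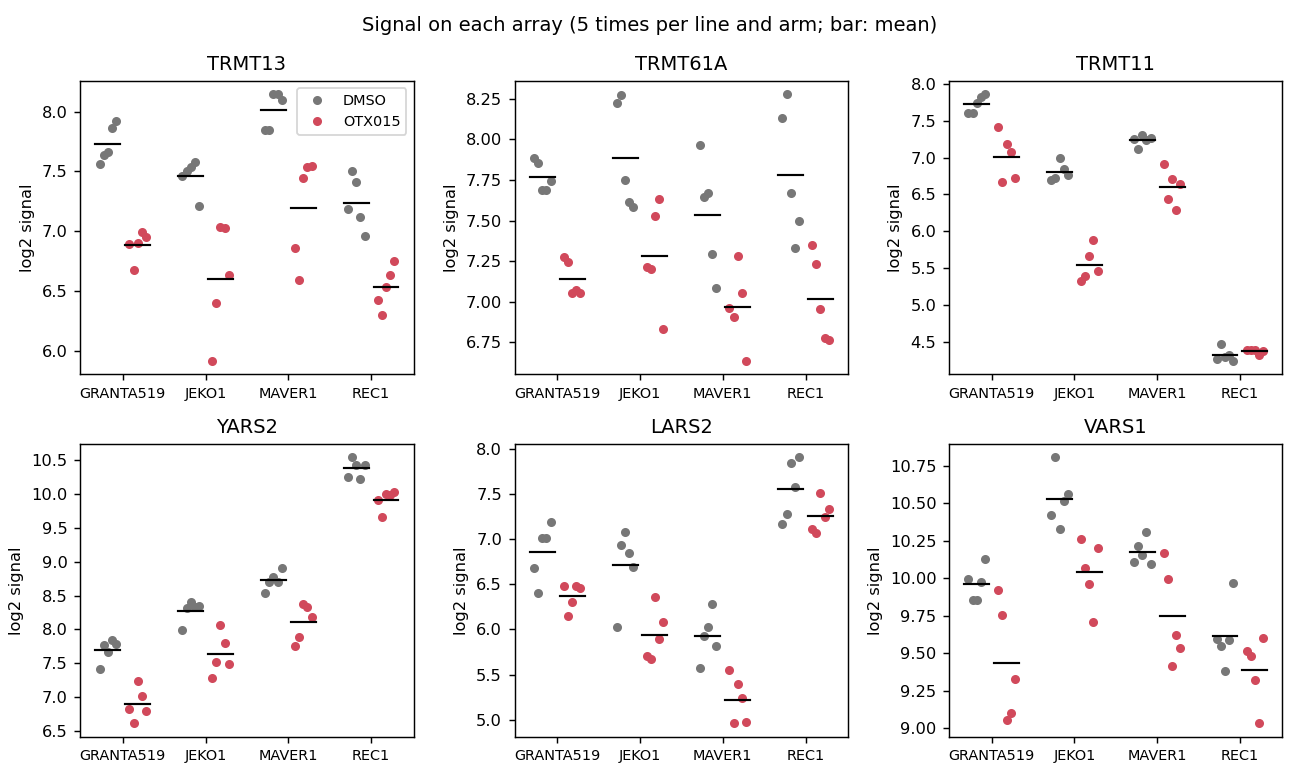
Log2 signal (y axis) of 6 members on each of the 40 arrays, with DMSO in grey and OTX015 in red for each cell line. Within a line and arm the 5 points run from 2 to 24 h and the bar is their mean. TRMT13 is separated by arm in all 4 lines, TRMT11 lies near 4.3 in REC1 in both arms, and YARS2 lies about 10 in REC1 and between 6.62 and 8.90 in the other lines.

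Among mitochondrial synthetases, YARS2, which charges mitochondrial tRNA with tyrosine, fell most. Its signal ranged from 7.42 to 10.54 on DMSO arrays (median 8.47) and from 6.62 to 10.02 on OTX015 arrays (median 7.85). Over all lines these ranges overlap because the lines differ in level, and within GRANTA519, MAVER1 and REC1 the arms did not overlap. All 20 pairs were lower, by -0.24 to -1.16. The mean fall was 1.55-fold (log2 -0.63 ± 0.14, adjusted p = 0.00194), with line means of -0.79 in GRANTA519, -0.64 in JEKO1, -0.61 in MAVER1 and -0.46 in REC1.

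LARS2, the mitochondrial leucyl-tRNA synthetase, was also lower in 20 of 20 pairs. Its signal lay between 5.57 and 7.91 on DMSO arrays (median 6.90) and between 4.96 and 7.52 on OTX015 arrays (median 6.22). The mean fall was 1.48-fold (log2 -0.57 ± 0.22, adjusted p = 0.00555). The line means were -0.48 in GRANTA519, -0.78 in JEKO1, -0.70 in MAVER1 and -0.30 in REC1, and the arms did not overlap in MAVER1.

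FARS2, for phenylalanine, lay between 6.93 and 8.77 on DMSO arrays (median 8.04) and between 6.85 and 8.67 on OTX015 arrays (median 7.69). It was lower in 16 of 20 pairs and fell 1.24-fold (log2 -0.31 ± 0.10, adjusted p = 0.0141). EARS2, for glutamate, lay between 7.81 and 8.87 on DMSO arrays (median 8.43) and between 7.61 and 8.84 on OTX015 arrays (median 8.12). It was lower in 16 of 20 pairs and fell 1.22-fold (log2 -0.29 ± 0.16, adjusted p = 0.0337). The arms overlap in every line for FARS2 and in every line except GRANTA519 for EARS2. TARS2, for threonine, fell 1.17-fold (log2 -0.23 ± 0.06, adjusted p = 0.0324).

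The other 11 mitochondrial synthetases did not pass. The lowest was SARS2, for serine (-0.32 ± 0.30, adjusted p = 0.0813), and the highest MARS2, for methionine (0.18 ± 0.15, adjusted p = 0.12). AARS2, CARS2, HARS2, IARS2, NARS2, PARS2, RARS2, VARS2 and WARS2 lay between -0.10 and 0.14. WARS2 was detected only in REC1, on 5 DMSO and 4 OTX015 arrays.

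In the cytosolic group the rise belonged to SARS1, the seryl-tRNA synthetase. Its signal lay between 6.59 and 9.30 on DMSO arrays (median 8.09) and between 6.93 and 9.33 on OTX015 arrays (median 8.40). It was lower with OTX015 in 4 of 20 pairs. The mean rise was 1.23-fold (log2 0.30 ± 0.11, adjusted p = 0.0184), with 0.46 in GRANTA519, 0.23 in JEKO1, 0.23 in MAVER1 and 0.26 in REC1.

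VARS1, for valine, had the largest cytosolic fall. Its signal lay between 9.38 and 10.81 on DMSO arrays (median 10.10) and between 9.03 and 10.26 on OTX015 arrays (median 9.61), and the arms did not overlap in JEKO1. It was lower in 19 of 20 pairs, with a mean fall of 1.34-fold (log2 -0.42 ± 0.13, adjusted p = 0.00675). A dim second probe, detected on 7 of 40 arrays, gave 0.05, and with the mean of both probes VARS1 no longer passed (-0.19, adjusted p = 0.0522).

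IARS1, for isoleucine, and LARS1, for leucine, are members of the multisynthetase complex. IARS1 lay between 9.44 and 11.00 on DMSO arrays (median 10.14) and between 9.20 and 10.84 on OTX015 arrays (median 9.89). Its fall was almost the same in each line, with -0.32 in GRANTA519, -0.33 in JEKO1, -0.32 in MAVER1 and -0.34 in REC1 (mean 1.25-fold, adjusted p = 0.00693), although single pairs ranged from -0.60 to 0.12. LARS1 lay between 8.88 and 9.90 on DMSO arrays (median 9.51) and between 8.35 and 9.89 on OTX015 arrays (median 9.16). It was lower in 18 of 20 pairs and fell 1.27-fold (log2 -0.34 ± 0.08, adjusted p = 0.00885). Of the 7 tested synthetases of the complex these 2 passed, against 28.9% of all genes tested. Changes of the 7 ranged from -0.34 to 0.16, with a median of -0.17.

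YARS1, for tyrosine, lay between 9.30 and 10.60 on DMSO arrays (median 10.05) and between 8.73 and 10.39 on OTX015 arrays (median 9.93). It was lower in 18 of 20 pairs and fell 1.19-fold (log2 -0.26 ± 0.09, adjusted p = 0.0268). FARSA and FARSB encode the α and β subunits of the cytosolic phenylalanyl-tRNA synthetase. FARSA fell 1.19-fold (log2 -0.25 ± 0.10, adjusted p = 0.031), whereas FARSB did not pass (0.01 ± 0.04, adjusted p = 0.912), and a dim second FARSB probe gave -0.19.

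The other 11 cytosolic synthetases besides FARSB did not pass. WARS1 and MARS1 changed by -0.23 each (adjusted p = 0.0839 and 0.0903). A second WARS1 probe, detected on 40 of 40 arrays, gave -0.34, and with the mean of both probes WARS1 passed (-0.29, adjusted p = 0.0454). KARS1 changed by -0.17 and NARS1 by -0.07. AARS1, EPRS1, GARS1, RARS1 and TARS1 lay between -0.03 and 0.02. HARS1 and QARS1, for histidine and glutamine, had the highest values, 0.18 and 0.16 (adjusted p = 0.22 and 0.112).

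Leaving out each cell line in turn, 8 of the 18 calls held throughout. These were IARS1, LARS1, VARS1, LARS2, YARS2, TRMT1, TRMT13 and TRMT61A. The other 10 did not pass without at least 1 of the lines, and YARS1 and TARS2 did not pass whichever line was left out. Without GRANTA519 10 members passed, without JEKO1 16, without MAVER1 8 and without REC1 13. A line left out leaves fewer line means for every gene. The share of all genes that passed without each line is not given here, so these counts do not compare members with other genes. EARS2, TARS2, TRMT10B, TRMT11 and TRMT61B did not pass when the 4 h arrays were left out.

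Both enzymes for the same amino acid could be compared for 12 amino acids, counting single-gene cytosolic enzymes. For leucine and tyrosine the cytosolic and the mitochondrial gene both fell, with -0.34 and -0.57 for LARS1 and LARS2 and -0.26 and -0.63 for YARS1 and YARS2. For 4 amino acids 1 of the 2 genes passed. These were isoleucine (IARS1 -0.33, IARS2 0.13), valine (VARS1 -0.42, VARS2 -0.04), serine (SARS1 0.30, SARS2 -0.32) and threonine (TARS1 0.00, TARS2 -0.23). For the other 6 neither gene passed. For phenylalanine, whose cytosolic enzyme has 2 genes, FARSA and FARS2 passed (-0.25 and -0.31) and FARSB did not. HARS1 and HARS2, whose starts lie 85 bases apart and head to head in RefSeq, changed by 0.18 and -0.06. No difference between partners was tested.

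**Figure D3:**
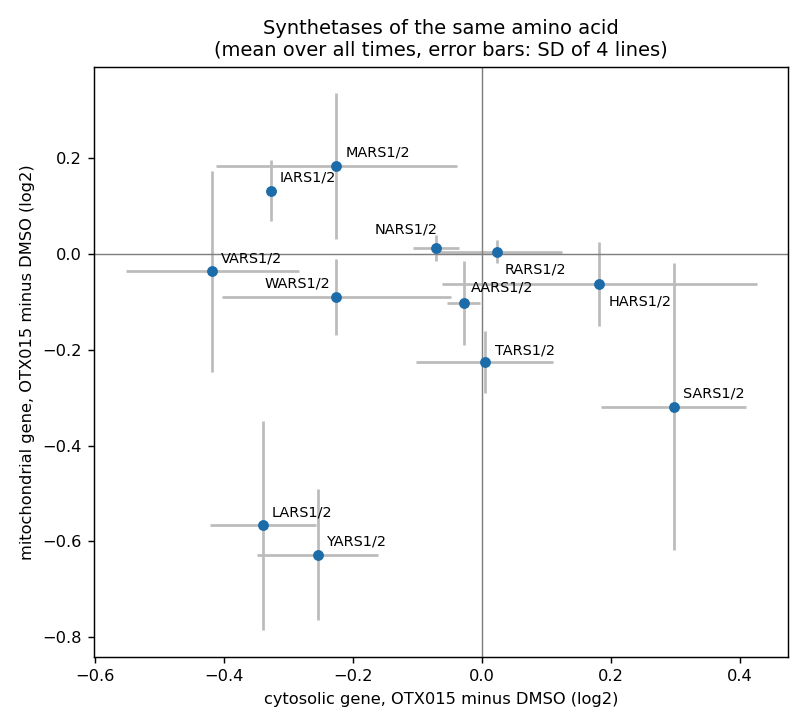
Change over all times of the cytosolic gene (x axis) against that of the mitochondrial gene for the same amino acid (y axis), both OTX015 minus DMSO on the log2 scale. Points are means and grey bars the SD of 4 lines. The pairs for leucine and tyrosine lie low on both axes, and the pair for serine lies at 0.30 and -0.32.

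By time, few members had passed at 2 h and 12 to 15 passed at each later time. At 2 h 3 of 49 passed, all lower, against 9.8% of all genes tested and 4.84% lower. At 4 h 14 passed, all lower (28.6%, against 10.1% of all genes lower, 9.92% higher and 20% in either direction). At 8 h 1 rose and 13 fell (21.7% of all genes passed, 11% higher and 10.7% lower). At 12 h 3 rose and 9 fell (22.5%, 10.6% higher and 11.9% lower), and at 24 h 1 rose and 14 fell (24.6%, 13.2% higher and 11.4% lower). In these tests the spread is shared over the 5 times. There were 58 calls in all, 36 without GRANTA519, 59 without JEKO1, 42 without MAVER1 and 42 without REC1. The matching counts over all genes are not given here.

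The counts were then taken by group. At 2, 4, 8, 12 and 24 h the count was 0, 1, 6, 4 and 7 of 18 for cytosolic synthetases. It was 1, 6, 4, 4 and 3 of 16 for mitochondrial synthetases, and 2, 7, 4, 4 and 5 of 15 for TRMT genes. At 4 h the median change was -0.45 for the TRMT genes, -0.25 for the mitochondrial and -0.09 for the cytosolic synthetases, and -0.0025 for all genes. At 24 h the medians were -0.14, -0.0029 and -0.20, and 0.0070 for all genes. These are descriptions, and no difference between the groups was tested.

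**Figure D4:**
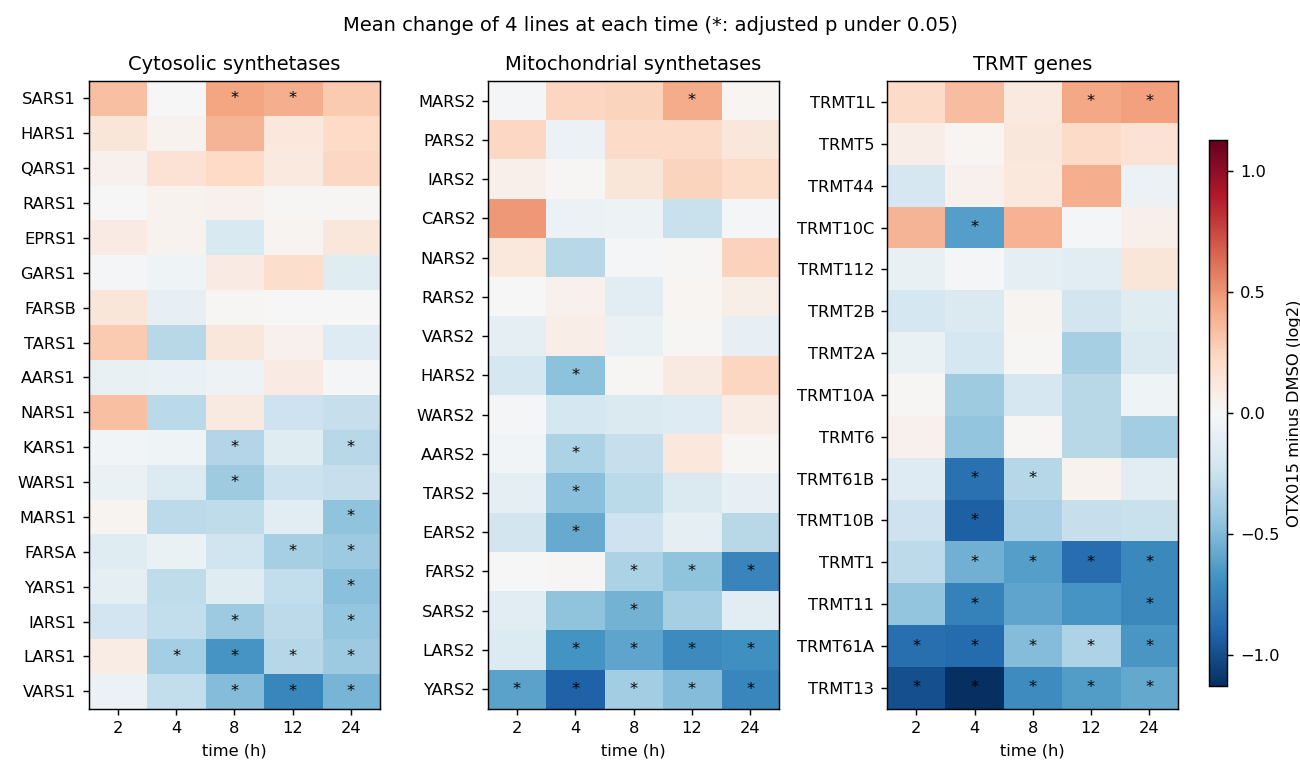
Mean change of 4 lines at each time (columns, 2 to 24 h) for each tested member (rows), with blue for lower and red for higher signal after OTX015 on the log2 scale and asterisks for an adjusted p under 0.05. The mitochondrial and TRMT panels hold 6 and 7 asterisks at 4 h, where the cytosolic panel holds 1, and the cytosolic panel holds 7 at 24 h.

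TRMT13, TRMT61A and YARS2 were lower at all 5 times, and they were the 3 members that passed at 2 h. TRMT13 changed by -0.99 ± 0.39, -1.13 ± 0.13, -0.71 ± 0.16, -0.63 ± 0.17 and -0.58 ± 0.31 at 2, 4, 8, 12 and 24 h (adjusted p = 5.95e-06 at 4 h and 0.00237 at 24 h). TRMT61A changed by -0.85 ± 0.19, -0.87 ± 0.23, -0.49 ± 0.23, -0.35 ± 0.29 and -0.65 ± 0.14. YARS2 changed by -0.60 ± 0.19, -0.91 ± 0.17, -0.39 ± 0.04, -0.49 ± 0.24 and -0.74 ± 0.26. The difference between 24 h and 2 h did not pass for any of the 3 (adjusted p = 0.176, 0.49 and 0.558).

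The effect at 24 h differed from that at 2 h for 4 members, all toward a lower signal, against 11.5% of all genes in either direction, 5.67% lower and 5.79% higher. FARS2 was at -0.01 ± 0.04 at 2 h and 0.01 ± 0.25 at 4 h, then at -0.36 ± 0.20, -0.46 ± 0.10 and -0.75 ± 0.21 at 8, 12 and 24 h. All 4 lines were below 0 at each of the last 3 times, and the 24 h effect was lower than the 2 h effect by a log2 difference of -0.74 (adjusted p = 0.00219). The FARS2 level on DMSO arrays was 7.44 at 4 h, against 8.09 to 8.17 at the other times. On OTX015 arrays it was 7.45 at 4 h and 7.43 at 24 h. In LARS1 the difference between 24 h and 2 h was -0.49 (adjusted p = 0.0229), in MARS1 -0.48 (adjusted p = 0.0329) and in NARS1 -0.60 (adjusted p = 0.0374). NARS1 did not pass at any single time. Its DMSO level went from 9.29 at 2 h to 9.78 at 24 h, and its OTX015 level from 9.63 to 9.52. For MARS1 the DMSO level went from 9.55 to 9.85 and the OTX015 level from 9.58 to 9.40. For LARS1 these were 9.33 to 9.54 and 9.41 to 9.13, and for FARS2 8.09 to 8.17 and 8.08 to 7.43. The part of the controls in these differences was not tested. When GRANTA519, MAVER1 or REC1 was left out, FARS2 alone passed, and without JEKO1 8 members did.

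The synthetases that passed later than 2 h reached their lowest mean changes at different times. LARS1 was at 0.08 ± 0.24 at 2 h and -0.67 ± 0.16 at 8 h (adjusted p = 5.44e-05). VARS1 was at -0.06 ± 0.09 at 2 h and -0.73 ± 0.14 at 12 h (adjusted p = 0.000237). LARS2 was at -0.15 ± 0.14 at 2 h and between -0.60 and -0.71 from 4 to 24 h. The LARS2 level on DMSO arrays was 6.36 at 2 h and between 6.64 and 6.99 later. On OTX015 arrays it was 6.21 at 2 h and between 5.96 and 6.39 later. The part of the rising control was not tested. KARS1 passed at 8 h (-0.33 ± 0.13, adjusted p = 0.013) and 24 h (-0.31 ± 0.12, adjusted p = 0.0166), WARS1 at 8 h (-0.40 ± 0.27, adjusted p = 0.0305) and MARS1 at 24 h (-0.45 ± 0.23, adjusted p = 0.0108). Of the rises, SARS1 passed at 8 h (0.45 ± 0.10) and 12 h (0.41 ± 0.14), TRMT1L at 12 h (0.44 ± 0.16) and 24 h (0.46 ± 0.18), and MARS2 at 12 h (0.42 ± 0.28, adjusted p = 0.0201). In all, 23 members passed at no time, and the share of all genes that did so is not given here.

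Several genes had their lowest mean at 4 h. A contrast of the 4 h effect with the mean of the other times was added after these values had been seen, so it is a description of them rather than independent support. It was past the threshold, toward a lower signal, for HARS2 (-0.50, adjusted p = 0.0248), TRMT10B (-0.64, adjusted p = 0.0159), TRMT10C (-0.83, adjusted p = 0.0354) and TRMT61B (-0.71, adjusted p = 0.00348), against 3.21% of all genes in either direction and 1.46% lower. Only TRMT61B stayed past the threshold without each line in turn.

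TRMT61B was lower by -0.69 in GRANTA519, -1.13 in JEKO1, -0.78 in MAVER1 and -0.78 in REC1 at 4 h (mean -0.85 ± 0.20, adjusted p = 6.38e-06). At 2 h its mean was -0.15 ± 0.08, at 8 h -0.32 ± 0.16, where it also passed (adjusted p = 0.0223), at 12 h 0.04 ± 0.19 and at 24 h -0.13 ± 0.15. Its DMSO level was 6.52 at 4 h and between 6.32 and 6.66 at the other times, while its OTX015 level was 5.67 at 4 h and between 6.17 and 6.54 otherwise. For TRMT10B the 4 h mean was -0.92 ± 0.27 (adjusted p = 0.000144), and its means at the other times lay between -0.37 and -0.23. In TRMT10C, whose 4 h mean was -0.62 ± 0.22 (adjusted p = 0.0155), the DMSO level was highest at 4 h, at 6.73 against 5.77 to 6.40 at the other times, and the OTX015 level of 6.10 lay within its range of 6.09 to 6.75 at the other times. At 4 h AARS2, EARS2, HARS2 and TARS2 were also lower, by -0.36, -0.57, -0.47 and -0.47, and passed at no other time.

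**Figure D5:**
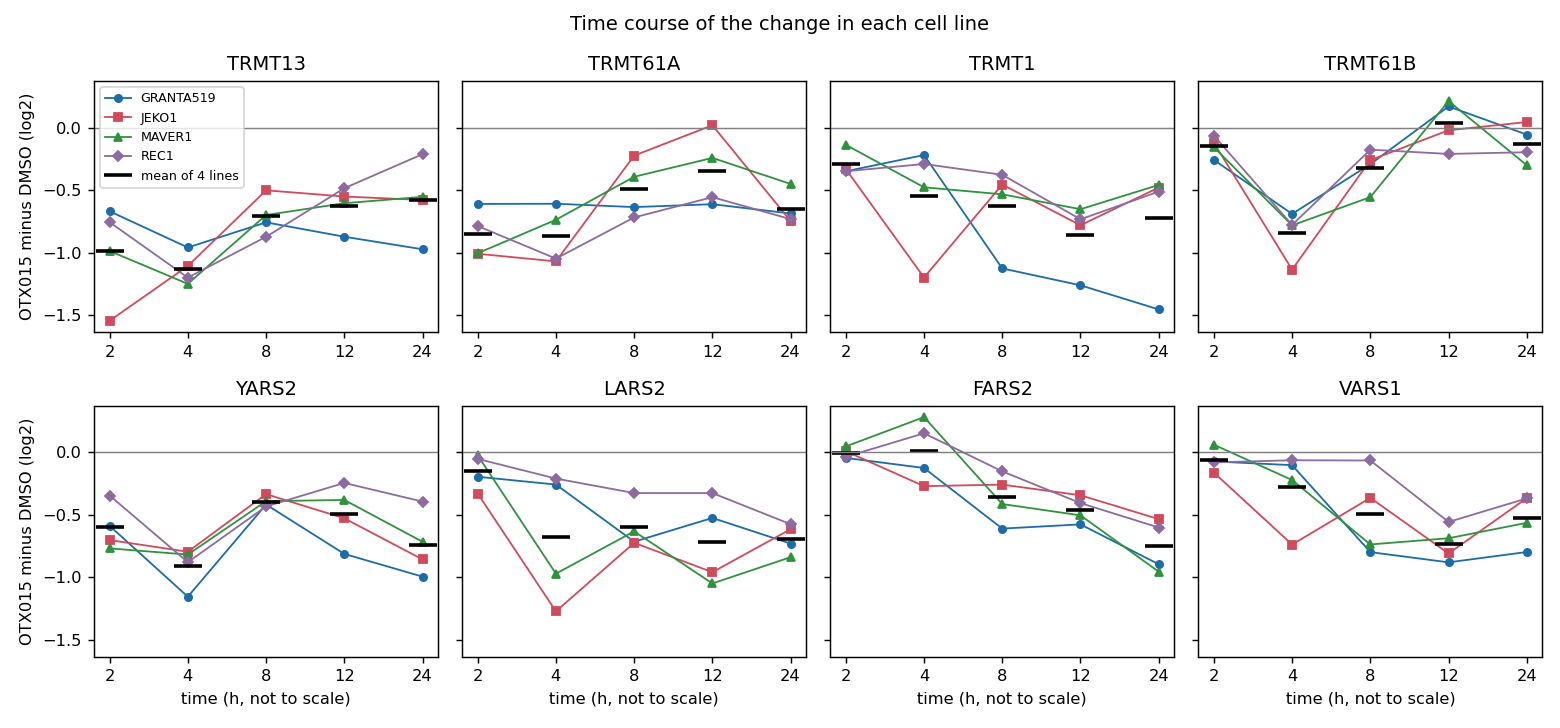
Change in each cell line (coloured lines) and mean of 4 lines (black bars) at 2, 4, 8, 12 and 24 h for 8 members, on a log2 scale of OTX015 minus DMSO. TRMT13, TRMT61A and YARS2 are low from 2 h, TRMT61B dips to between -0.69 and -1.13 at 4 h, and FARS2 is about 0 at 2 h and between -0.53 and -0.95 at 24 h.

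Within single lines, IARS1, YARS2, TRMT1, TRMT13 and TRMT61A were lower in all 4, and the share of all genes that were is not given here. In GRANTA519 17 members passed, 1 higher and 16 lower (24.3% of all genes passed, 11.9% higher and 12.4% lower). In JEKO1 13 passed, 1 higher and 12 lower (24.3%, 10.7% higher and 13.5% lower). In MAVER1 14 passed, 3 higher and 11 lower (22%, 11.2% higher and 10.7% lower), and in REC1 9 passed, 1 higher and 8 lower (15.5%, 7.82% higher and 7.63% lower). Cytosolic synthetases made up 8 of the 17 in GRANTA519 and 2 of the 13 in JEKO1, while TRMT genes made up 4 and 8. The 53 calls within lines became 32, 29 and 30 when the 8, 12 or 24 h arrays were left out.

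The effect differed between lines by an F test for 3 members, HARS1, SARS2 and TRMT11, against 9.71% of all genes. In this test the 5 times of a line stand in for replicates. HARS1 was at 0.15 in GRANTA519, -0.15 in JEKO1, 0.41 in MAVER1 and 0.31 in REC1 (adjusted p = 0.0451). SARS2 was at -0.41 in GRANTA519, -0.67 in JEKO1, -0.25 in MAVER1 and 0.04 in REC1 (adjusted p = 0.00548), and all 5 JEKO1 pairs lay between -0.31 and -0.95. For TRMT11 (adjusted p = 0.000235) the line that differed was REC1, where the probe was not detected in either arm. HARS1 did not pass with any 1 line left out, SARS2 not without JEKO1 or REC1, and without REC1 0 members passed this test.

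The untreated level itself differed between lines for 45 of 49 members, against 73.4% of all genes tested. The range between the highest and the lowest line mean on DMSO arrays had a median of 0.75 for cytosolic synthetases, 0.96 for mitochondrial synthetases, 0.66 for TRMT genes and 0.71 for all genes. YARS2 had the widest range among mitochondrial genes. Its DMSO level was 7.70 ± 0.17 in GRANTA519, 8.28 ± 0.16 in JEKO1, 8.72 ± 0.13 in MAVER1 and 10.37 ± 0.13 in REC1 (SD, n = 5 arrays), so that REC1 was 6.38-fold above GRANTA519 (adjusted p = 1.05e-14). LARS2 and NARS2 were also highest in REC1 (ranges of 1.63 and 1.41), and VARS2 was highest in JEKO1 (1.55). These ranges passed with adjusted p-values of 5.63e-08, 1.71e-08 and 1.3e-10.

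Among cytosolic genes SARS1 differed most, with 6.76 ± 0.13 in GRANTA519, 8.05 ± 0.22 in REC1, 8.14 ± 0.19 in MAVER1 and 8.75 ± 0.35 in JEKO1, a 3.97-fold range (adjusted p = 5.62e-10). The levels in REC1 and MAVER1 differ by less than the spread of either. KARS1 (range 1.23), IARS1 (1.11) and MARS1 (0.92) were likewise highest in JEKO1 (adjusted p = 2.67e-10, 2.31e-08 and 2.27e-06). Among TRMT genes, TRMT112 ranged over 1.25 from REC1 to GRANTA519, TRMT1L over 1.13 from GRANTA519 to MAVER1, and TRMT10C over 0.99 from MAVER1 to REC1 (adjusted p = 6.45e-08, 8.06e-07 and 8.73e-05).

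TRMT11 was not detected in REC1, so the other lines can be compared with it only by a bound. For the bound, each REC1 array was given the dimmest signal that still counted as detected there, or the TRMT11 signal if that was higher, and the mean of these was set against the mean of the line in which TRMT11 was detected. TRMT11 was at least 6.94-fold higher in GRANTA519, at least 4.94-fold higher in MAVER1 and at least 3.66-fold higher in JEKO1 (adjusted p = 3.61e-16 over the 4 lines). The measured means were 7.73, 7.24, 6.81 and 4.32 in GRANTA519, MAVER1, JEKO1 and REC1. WARS2 was not detected in the other 3 lines and was at least 1.33-fold to 1.39-fold higher in REC1.

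The DMSO arrays also moved with time for 4 members, against 7.47% of all genes (4.37% higher and 3.1% lower). From 2 to 24 h TRMT1L rose by 1.03 (adjusted p = 0.000841), LARS2 by 0.54 (adjusted p = 0.0414) and YARS2 by 0.32 (adjusted p = 0.0405), while TRMT61A changed by -0.57 (adjusted p = 0.0104). The mean TRMT61A level on DMSO arrays was 8.05, 8.01, 7.70, 7.48 and 7.48 at the 5 times, and on OTX015 arrays 7.20, 7.15, 7.20, 7.13 and 6.82. The change in TRMT61A from OTX015 at each time is thus set against a control that itself declined. TRMT1L alone passed whichever line was left out.

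Other genes of the tRNA pathway were taken from lists drawn up by function and are counted over all times against the same 28.9% of all genes. Among 20 tested tRNA and related RNA methyltransferases outside the TRMT series, 2 rose and 9 fell (median -0.17). ALKBH8, which completes a methylated wobble uridine, fell most (-1.54 ± 0.23, adjusted p = 0.000543), followed by TYW3 (-0.95 ± 0.14, adjusted p = 0.0007), a wybutosine enzyme, and THUMPD2 (-0.84 ± 0.19, adjusted p = 0.00128). ALKBH8 was detected on at most 30 of 40 arrays. The rises were LCMT2 (0.55 ± 0.07), also of wybutosine synthesis, and CMTR1 (0.31 ± 0.08), which acts on mRNA caps rather than tRNA. MRM1, MRM2 and MRM3, which fell, act on mitochondrial ribosomal RNA.

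Among 42 other tRNA modification enzymes, 5 rose and 11 fell (median -0.06). The largest falls were QTRT1 (-0.67 ± 0.07), a subunit of the queuine enzyme, and the dihydrouridine synthases DUS4L (-0.61 ± 0.17) and DUS3L (-0.54 ± 0.24). The largest rises were LAGE3 (0.48 ± 0.18), the deaminase ADAT1 (0.45 ± 0.14) and OSGEPL1 (0.33 ± 0.10). Among 42 genes of tRNA transcription and processing, 5 rose and 9 fell (median -0.05). GTF3C6, a subunit of TFIIIC, fell by 1.33 ± 0.33 (adjusted p = 0.00107), POLR3G, an RNA polymerase III subunit, changed by -0.64 ± 0.10 and PRORP, the nuclease of mitochondrial RNase P, by -0.60 ± 0.15. ELAC1 (0.74 ± 0.16), the splicing endonuclease subunit TSEN34 (0.46 ± 0.21) and POP5 (0.37 ± 0.16) rose.

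The list of mitochondrial charging helpers held 4 tested genes. GATB (-0.71 ± 0.22, adjusted p = 0.00264) and QRSL1 (-0.57 ± 0.26, adjusted p = 0.00874), subunits of the amidotransferase that makes mitochondrial glutaminyl-tRNA, fell. QRSL1 was detected on at most 28 of 40 arrays. GATC, a further subunit of that enzyme, did not pass (0.15 ± 0.25, adjusted p = 0.325). MTFMT, which formylates the initiator methionyl-tRNA, rose (0.55 ± 0.08, adjusted p = 0.00189). Of 5 tested relatives of the synthetases, TARS3 (0.87 ± 0.25, adjusted p = 0.0019), a further threonyl-tRNA synthetase, and SEPSECS (0.37 ± 0.15) rose. TARS3 was detected on at most 33 of 40 arrays. PSTK (-0.33 ± 0.17) and the editing deacylase DTD1 (-0.19 ± 0.04) fell. PSTK and SEPSECS act in succession in selenocysteinyl-tRNA synthesis.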

How the data were processed

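Per the labels' protocols, RNA was extracted with TRIzol and labelled with the Ambion TotalPrep kit. The deposited non-normalized table gave 1 intensity per probe and array (47231 probes, 70.9 to 22105). Per the submitters' processing notes, GenomeStudio was used. The deposited series matrix gave log2 values, not centred by probe, with column medians of 6.706 to 6.707. Each of its 40 columns matched its own array best. The sources used here do not state its normalization, so it served as an alternative.

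The background of each array was the mode of its signals. Intensities were corrected with normexp at that level, raised by an offset of 16, quantile normalized and log2-transformed (limma 3.58.1, R 4.3.3). Quantile normalization hides a change shared by all transcripts. A probe was detected above the mode by 2.33 SD (one-sided p of 0.01), and 27188 probes detected on at least 4 arrays were kept. The platform annotation named 1 gene for 30113 probes, several for 8 and none for 17110. Symbols were updated through Entrez ids (30074 matched a GRCh38.p14 RefSeq table, 47 did not). The probe with the highest mean stood for its gene.

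Tests used lmFit and eBayes on 20 differences of the same line and time, two-sided, adjusted by Benjamini-Hochberg across 13740 genes. The change over all times was tested on 4 line means. The differences in effect between lines or times were tested in a model with line and time. Pairs share a cell line, and their deviations from the group means correlated at 0.756 to 0.886 across genes. The tests were tried first on simulated data.

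The members, the lists and the contrasts were chosen with earlier results of these data known. The text gives values in both arms for up to 4 rises and 4 falls per group among members that passed, fold and p for the others that passed, and up to 3 rises and 3 falls per pathway list. Alternatives were no background correction, an offset of 50, cyclic loess, the series matrix, other detection filters, the mean of all probes, each line or time left out, no pairing and line as a random block.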

Additional observations from a re-analysis of the deposited data

Results flagged for a closer look

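Among 49 tested members, 4 had 1 cell line far from the other 3 in the change over all times, by a rule under which chance flags about 1 in 20 groups. QARS1 in MAVER1 was at 0.28 (0.10 to 0.13 in the other lines), and RARS1 in JEKO1 at -0.13 (0.06 to 0.08). SARS1 in GRANTA519 was at 0.46, the line with the lowest SARS1 level on DMSO arrays. TRMT10A in JEKO1 was at -0.41, with the gene detected on 34 of 40 arrays.

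The effect of OTX015 differed between lines by an F test for HARS1 (adjusted p = 0.0451), SARS2 (adjusted p = 0.00548) and TRMT11 (adjusted p = 0.000235, not detected in REC1). It differed between 24 h and 2 h for LARS1 (-0.49), MARS1 (-0.48), NARS1 (-0.60) and FARS2 (-0.74). It differed between 4 h and the mean of the other times, in a contrast chosen after the values were seen, for HARS2 (-0.50), TRMT10B (-0.64), TRMT10C (-0.83) and TRMT61B (-0.71). For NARS1 the DMSO level was lowest at 2 h, and for TRMT10C it was highest at 4 h. The part of the controls in these differences was not tested.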

How the results depend on the processing

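Of 18 members that passed over all times, 4 (LARS1, TRMT1, TRMT13 and TRMT61A) passed under all 18 alternatives. No value past the threshold in either fit changed sign. IARS1, LARS2 and YARS2 lost their call only without the pairing of arrays of the same line and time, and TRMT61B only without MAVER1 or without the 4 h arrays. Where a cause is not named, it was not tested.

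The pairing comes from the shared cell line. Without this replicate block 9 members passed over all times and 6 instead of 58 calls were made over the 5 times. With line as a random block over the 20 differences 28 passed (estimated correlation 0.0579). With 1 line left out, members passing ranged from 8 to 16 over all times (10 without GRANTA519) and from 36 to 59 over the 5 times. The same range was 1 to 8 for 24 h minus 2 h, 0 to 2 for the difference between lines, 1 to 2 for 4 h minus the other times and 1 to 2 for DMSO 24 h minus 2 h (only TRMT1L passed without MAVER1 or REC1). For 24 h minus 2 h, 9 instead of 4 passed without background correction, 8 with an offset of 50, 9 with the series matrix and 8 when only probes detected on all 40 arrays, thus fewer genes, were tested. The 53 calls within lines fell to 32 without the 8 h arrays, 29 without 12 h and 30 without 24 h, where each line keeps 4 times. The cytosolic median of -0.05 became -0.081 with the mean of all probes, -0.12 without the 2 h arrays and -0.014 without the 4 h arrays, and the mitochondrial median of -0.08 became -0.13 without 24 h. Without background correction the TRMT, mitochondrial and cytosolic medians were -0.067, -0.042 and -0.046, and in the series matrix -0.070, -0.036 and -0.045, where the TRMT median of -0.19 shrinks most and the mitochondrial and cytosolic medians change order. The share of all genes that passed under these alternatives is not given here, so the counts do not compare members with other genes. Low signals limit TRMT11 in REC1, WARS2 and TRMT6.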
